A study of Homo sapiens with 3 samples.

Results

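Epithelial adhesion genes and mesenchymal genes were followed in LNCaP, an androgen-responsive line established from human prostate cancer, of luminal epithelial character. The 10 genes were CDH1, EPCAM, DSP, CDH26, ESRP1 and ESRP2 on the epithelial side, and FN1, VIM, CDH2 and ZEB1 on the mesenchymal side. They were chosen by name and found by their GENCODE gene name, each as 1 row of the 58884 gene rows in the count table. The line was maintained in 10% serum, and cells were pre-cultured for 24 h in all 3 groups. RNA came from cells exposed for 72 h to conditioned medium (CM) at 50% of the volume, with serum at 2%. A total of 3 kinds of CM were used, namely PPAT-CM, marked as tumor, PVAT-CM, marked as normal, and control-CM. The title of the series uses PPAT for periprostatic adipose tissue, while neither PVAT nor the F3 in the library names is expanded. All 3 groups were the same cell line, the labels give no genetic change and no added agent, and each group was 1 library from 1 line.

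With 1 library for each medium no spread between cultures could be measured, no test was possible and no p-value is given. Ratios are therefore between libraries, and their 95% intervals cover counting error only, treating each read as 1 molecule although the labels name no molecular identifiers. Library totals were 16965584 counts in PPAT-CM, 14174241 in PVAT-CM and 16534649 in control-CM. Mitochondrially encoded genes took 15.5% of these counts in PPAT-CM, 21.1% in PVAT-CM and 30.8% in control-CM, so small ratios depend on the scaling between libraries. The median log2 ratio of all genes in PPAT-CM against control-CM was 0.03 with the TMM factors used (edgeR's trimmed mean factors), 0.01 with TMM factors taken without mitochondrial genes and 0.27 with total counts. All 9 markers fixed for the LNCaP line passed the count filter, among them KRT8, KRT18 and HOXB13. Of 10 fibroblast or stroma markers, COL1A2, DCN, PDGFRA, FAP, THY1 and POSTN had 0 counts in every library, and COL1A1 alone passed the filter. Of 11 adipocyte markers 5, among them ADIPOQ, LEP and FABP4, were at 0 in every library, and PNPLA2 alone passed the filter, with 1638 counts in PPAT-CM, 1471 in PVAT-CM and 1634 in control-CM. The lipid droplet gene PLIN1 had 89 counts in PPAT-CM, 27 in PVAT-CM and 13 in control-CM. None of 7 endothelial and 10 leukocyte markers passed, and CDH5, KDR and PTPRC were at 0 in every library, while ITGAM had 21 counts in PPAT-CM, 0 in PVAT-CM and 1 in control-CM. The part of these markers in the ratios was not tested.

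Epithelial cells hold to each other through adherens junctions, in which E-cadherin binds its like on the neighbouring cell, and through desmosomes, in which desmoplakin ties cadherins to keratin filaments. In an epithelial-mesenchymal transition (EMT) these genes are typically lowered, while N-cadherin, vimentin and fibronectin are raised. Repressors such as ZEB1 bind E-box sequences in epithelial promoters, and the splicing regulators ESRP1 and ESRP2 keep epithelial isoforms of many transcripts. In prostate cancer a change from E-cadherin to N-cadherin has been associated with invasive disease.

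RefSeq promoter windows, from 250 bases before to 50 after a gene's start (GRCh38.p14), were held for FN1, VIM, CDH2, ZEB1, DSP and CDH26. For CDH26 the window at the gene's first start is given. The 3 genes past 2-fold are shown because the results turn on them, and DSP as a measured epithelial gene whose window carries 2 E-boxes. Capitals mark matches, on both strands, to the E-box CAGGTG bound by ZEB1 and related repressors, the cyclic AMP response element TGACGTCA, or the AP-1 motif TGANTCA. These motifs do not overlap each other in the windows shown.
FN1, chr2:215436019-215436318, minus strand: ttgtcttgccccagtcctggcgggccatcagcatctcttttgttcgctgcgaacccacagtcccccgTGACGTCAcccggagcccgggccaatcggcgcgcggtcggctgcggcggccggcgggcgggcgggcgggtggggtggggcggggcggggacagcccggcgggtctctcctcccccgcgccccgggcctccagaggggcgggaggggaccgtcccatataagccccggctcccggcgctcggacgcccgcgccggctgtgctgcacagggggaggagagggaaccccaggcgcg
VIM, chr10:17227991-17228290, plus strand: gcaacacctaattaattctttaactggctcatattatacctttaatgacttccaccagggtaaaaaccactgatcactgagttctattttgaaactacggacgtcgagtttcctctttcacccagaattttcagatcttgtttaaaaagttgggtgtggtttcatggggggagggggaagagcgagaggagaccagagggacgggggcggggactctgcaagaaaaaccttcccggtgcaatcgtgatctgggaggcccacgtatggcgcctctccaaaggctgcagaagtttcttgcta
CDH26, chr20:59958173-59958472, plus strand: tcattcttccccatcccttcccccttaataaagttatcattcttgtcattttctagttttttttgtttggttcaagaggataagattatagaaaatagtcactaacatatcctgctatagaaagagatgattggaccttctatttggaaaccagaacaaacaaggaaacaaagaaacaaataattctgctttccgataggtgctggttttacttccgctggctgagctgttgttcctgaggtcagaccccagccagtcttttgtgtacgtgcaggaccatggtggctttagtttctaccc
DSP, chr6:7541421-7541720, plus strand: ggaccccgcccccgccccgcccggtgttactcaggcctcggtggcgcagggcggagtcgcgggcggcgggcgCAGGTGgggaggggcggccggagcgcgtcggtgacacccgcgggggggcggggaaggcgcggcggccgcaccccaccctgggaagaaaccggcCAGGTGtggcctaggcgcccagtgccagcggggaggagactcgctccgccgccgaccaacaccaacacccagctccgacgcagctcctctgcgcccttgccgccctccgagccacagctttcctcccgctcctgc

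The FN1 window held 1 TGACGTCA, a motif present in 1.85% of the 35116 RefSeq promoter windows of this length. The DSP window held 2 CAGGTG motifs, of which at least 1 occurs in 20.6% of all windows. None of the 3 motifs was found in the VIM and CDH26 windows shown, and TGANTCA occurs in 7.71% of all windows. The second CDH26 window held none of them either. Several windows were held for CDH2 and ZEB1, which were not measured and are not printed. Among those of ZEB1, 1 had 3 CAGGTG motifs and another had 1, and 1 of the CDH2 windows had 1 TGANTCA. A match describes the letters in the window and says nothing of binding in these cells.

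Set against control-CM, the measured genes did not divide into an epithelial and a mesenchymal side. On the mesenchymal side only FN1 and VIM were measured. In PPAT-CM against PVAT-CM the median log2 ratio was -0.43 over the 6 epithelial genes, of which only ESRP2 was higher, at 0.23. In that comparison the median was 0.24 over FN1 and VIM, which differed in opposite directions, and 0.02 over all genes. Fibronectin was the highest of the measured genes in the PPAT-CM ratios, and vimentin and the epithelial cadherin CDH26 were at the low end. E-cadherin was not lower in either adipose medium than in control-CM. CDH2 had no count in any library and ZEB1 almost none. A total of 8 of the 10 genes had a mean of at least 50 counts over the 3 libraries and entered the counts below. Each of the 8 had at least 249 counts in every library, so none was measured through a single medium.

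In PPAT-CM against control-CM, 1 of the 8 genes, FN1, was at least 2-fold higher and 2, VIM and CDH26, were at least 2-fold lower. Over all 12256 genes that passed the filter 6.67% were at least 2-fold different in that comparison. In PVAT-CM against control-CM none of the 8 reached 2-fold, where 0.906% of all genes did. In PPAT-CM against PVAT-CM the same 3 genes, FN1, VIM and CDH26, were past 2-fold in the same directions, where 3.92% of all genes were. With total counts VIM fell short there, at a log2 ratio of -0.97. At 1.5-fold the counts were 3 of 8 in PPAT-CM against control-CM, where 20.7% of all genes passed, and 2 of 8 (FN1 and VIM) in PVAT-CM against control-CM, where 6.64% did. In PPAT-CM against PVAT-CM 5 of 8 passed 1.5-fold, with DSP and ESRP1 on the lower side beside VIM and CDH26, where 14.6% of all genes did. Some calls at 1.5-fold rested on the settings. With total counts DSP and ESRP1 fell short of it in PPAT-CM against PVAT-CM, at log2 ratios of -0.58 and -0.48, which left 3 of 8. VIM in PVAT-CM against control-CM fell short at -0.58 with DESeq2 size factors, at -0.45 with total counts, and with a pseudocount of 5. CDH1 passed it with total counts, at 0.60 in PPAT-CM and 0.61 in PVAT-CM, each against control-CM. The 3 comparisons share libraries and are not independent of each other, and the genes were chosen with results of these data known.

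**Figure D1:**
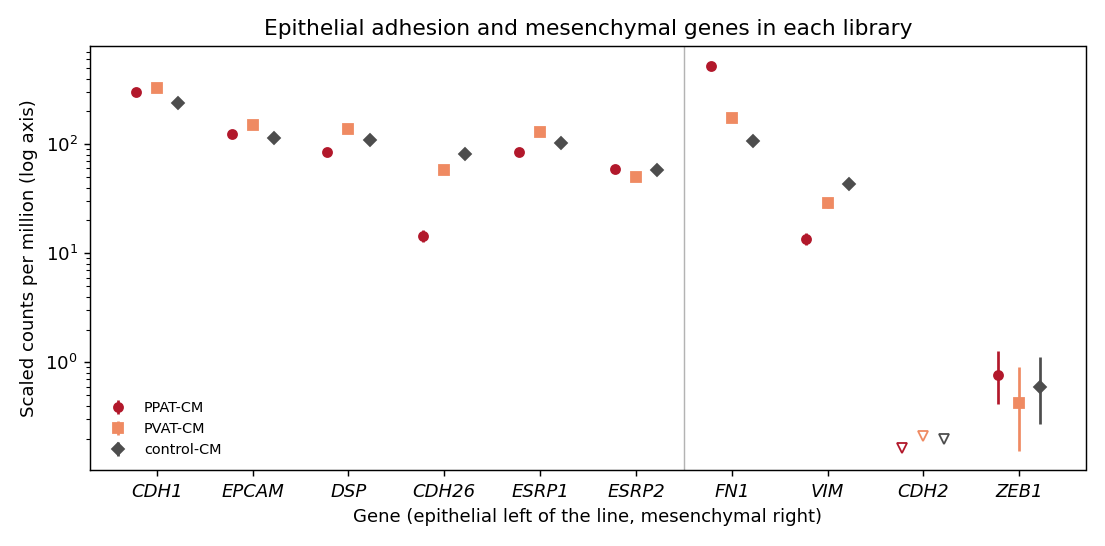
Scaled CPM, that is counts relative to the scaled library size, on a log axis for the 10 genes in PPAT-CM (circles), PVAT-CM (squares) and control-CM (diamonds), 1 library each, with 95% Poisson counting intervals that are mostly smaller than the symbols. Open triangles mark CDH2, which had 0 counts, at the level of 3 counts. FN1 stands highest in PPAT-CM at 519 scaled CPM, while CDH26 and VIM are the lowest of the 8 measured genes there at 14.5 and 13.5.

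E-cadherin, encoded by CDH1 (ENSG00000039068, chromosome 16, 68737225 to 68835548, GRCh38), is the calcium-dependent cadherin of epithelial adherens junctions. CDH1 had 5573 counts in PPAT-CM, 4691 in PVAT-CM and 3589 in control-CM. After TMM scaling its level was higher in both adipose media than in control-CM. The ratio was 1.28-fold for PPAT-CM (1.23 to 1.34) and 1.39-fold for PVAT-CM (1.33 to 1.45). Between the adipose media CDH1 was 1.09-fold lower in PPAT-CM (1.04 to 1.13). None of these ratios reached 1.5-fold with TMM scaling.

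EPCAM (ENSG00000119888, chromosome 2, 47345158 to 47387601) encodes a membrane glycoprotein of epithelial cells that takes part in adhesion and is cleaved to give a signalling fragment. EPCAM had 2280 counts in PPAT-CM, 2125 in PVAT-CM and 1743 in control-CM. It was 1.08-fold higher in PPAT-CM than in control-CM (1.01 to 1.15), and 1.30-fold higher in PVAT-CM (1.22 to 1.38). PVAT-CM was the highest library for EPCAM, as it was for CDH1, and PPAT-CM was 1.20-fold lower than PVAT-CM (1.13 to 1.28).

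DSP (ENSG00000096696, chromosome 6, 7541575 to 7586717), with the promoter shown above, encodes desmoplakin. DSP had 1564 counts in PPAT-CM, 1951 in PVAT-CM and 1661 in control-CM. Unlike CDH1 and EPCAM, DSP was lower in PPAT-CM than in control-CM, by 1.29-fold (1.20 to 1.38), and higher in PVAT-CM, by 1.25-fold (1.17 to 1.33). Between the adipose media it was 1.61-fold lower in PPAT-CM (1.5 to 1.72). That ratio was the 528th lowest of 12256, past 1.5-fold and short of 2-fold.

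CDH26 (ENSG00000124215, chromosome 20, 59958427 to 60034011) encodes a cadherin known from inflamed gastrointestinal epithelium, where it binds integrins. CDH26 had 266 counts in PPAT-CM, 824 in PVAT-CM and 1233 in control-CM. The PPAT-CM library stood well below the other libraries, and PVAT-CM lay between PPAT-CM and control-CM. CDH26 was 5.62-fold lower in PPAT-CM than in control-CM (4.92 to 6.44), the 8th lowest ratio of the 12256 genes. It was 4.0-fold lower in PPAT-CM, set against PVAT-CM (3.48 to 4.61), the 13th lowest ratio. In PVAT-CM against control-CM it was 1.41-fold lower (1.29 to 1.54). Its direction in the adipose media was opposite to that of CDH1 although both are cadherins.

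ESRP1 (ENSG00000104413, chromosome 8, 94641074 to 94707466) and ESRP2 (ENSG00000103067, chromosome 16, 68229111 to 68238102) encode RNA-binding proteins of the same family that favour epithelial exon choices. ESRP1 had 1569 counts in PPAT-CM, 1827 in PVAT-CM and 1552 in control-CM. ESRP2 had 1086 counts in PPAT-CM, 719 in PVAT-CM and 874 in control-CM. The paralogs were thus ordered oppositely, with ESRP1 highest and ESRP2 lowest in PVAT-CM after scaling.

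ESRP1 was 1.20-fold lower in PPAT-CM than in control-CM (1.12 to 1.29), and 1.25-fold higher in PVAT-CM than in control-CM (1.17 to 1.34). ESRP1 was also 1.5-fold lower in PPAT-CM, set against PVAT-CM (1.40 to 1.61). For ESRP2 the interval of the ratio in PPAT-CM against control-CM included 1 (0.937 to 1.12), and its sign turned with upper quartile scaling. ESRP2 was 1.14-fold lower in PVAT-CM than in control-CM (1.03 to 1.26), and 1.17-fold higher in PPAT-CM than in PVAT-CM (1.06 to 1.29). Gene counts do not show which isoforms these regulators left in place. ESRP2 overlaps NFATC3 on the other strand, which had 48 counts in PPAT-CM, 33 in PVAT-CM and 17 in control-CM, and the strand setting of the counting is not given in the sources used here.

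FN1 (ENSG00000115414, chromosome 2, 215360440 to 215436172) encodes fibronectin, a matrix glycoprotein that integrins bind and a usual mesenchymal marker. FN1 had 9549 counts in PPAT-CM, 2501 in PVAT-CM and 1628 in control-CM. PPAT-CM was far above both other libraries, and PVAT-CM was again between PPAT-CM and control-CM. FN1 was 4.84-fold higher in PPAT-CM than in control-CM (4.59 to 5.10), the 63rd highest ratio of 12256. It was 2.96-fold higher in PPAT-CM than in PVAT-CM (2.83 to 3.09), and 1.63-fold higher in PVAT-CM than in control-CM (1.53 to 1.74). The 10 stroma markers, 6 of them at 0, summed to 534 counts in PPAT-CM, 371 in PVAT-CM and 792 in control-CM. COL1A1 alone gave 478 of these in PPAT-CM, 323 in PVAT-CM and 718 in control-CM. The marker counts are unscaled, and the part of stroma in the FN1 ratios was not tested.

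VIM (ENSG00000026025, chromosome 10, 17228259 to 17237593) encodes vimentin, the intermediate filament protein of mesenchymal cells. VIM had 249 counts in PPAT-CM, 409 in PVAT-CM and 653 in control-CM. The order of the libraries was the reverse of that of FN1. VIM was 3.18-fold lower in PPAT-CM than in control-CM (2.74 to 3.69), the 51st lowest ratio. It was 2.12-fold lower in PPAT-CM, set against PVAT-CM (1.81 to 2.49), a call at 2-fold that was lost with total counts. It was 1.5-fold lower in PVAT-CM than in control-CM (1.32 to 1.70), which lay at the 1.5-fold limit. The overlapping antisense gene VIM-AS1 had 11 counts in PPAT-CM, 13 in PVAT-CM and 33 in control-CM.

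CDH2 (ENSG00000170558, chromosome 18, 27950966 to 28177446), which encodes N-cadherin, had 0 counts in all 3 libraries. Taking 3 counts as the limit, this allows up to 0.163 scaled CPM in PPAT-CM, 0.210 in PVAT-CM and 0.198 in control-CM, and no ratio is given. ZEB1 (ENSG00000148516, chromosome 10, 31318495 to 31529814), which encodes a zinc finger repressor of CDH1, had 14 counts in PPAT-CM, 6 in PVAT-CM and 9 in control-CM. It did not pass the filter, and its ratio in PPAT-CM against control-CM had an interval of 0.517 to 3.36. A difference in ZEB1 was therefore not detectable at this depth. The divergent antisense gene ZEB1-AS1 had 180 counts in PPAT-CM, 151 in PVAT-CM and 132 in control-CM, more than ZEB1 itself, and its intervals in all 3 comparisons included 1.

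**Figure D2:**
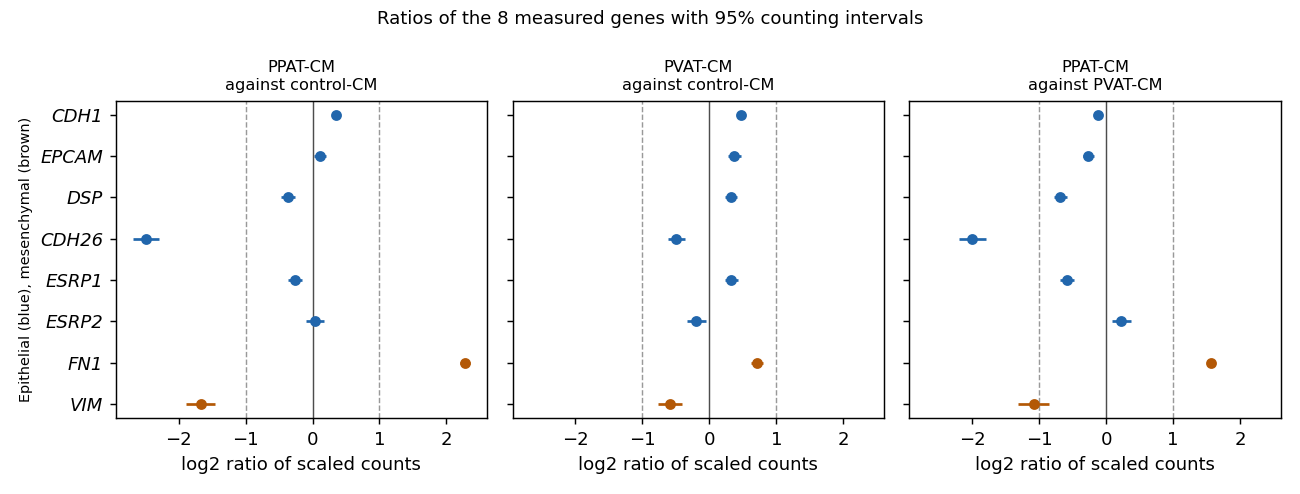
Log2 ratios of scaled counts for the 8 measured genes in the 3 comparisons, with 95% counting intervals, epithelial genes in blue and mesenchymal genes in brown. Dashed lines mark 2-fold. FN1 lies right and VIM left of the dashed lines in both panels that involve PPAT-CM, and CDH26 lies farther left than VIM.

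**Figure D3:**
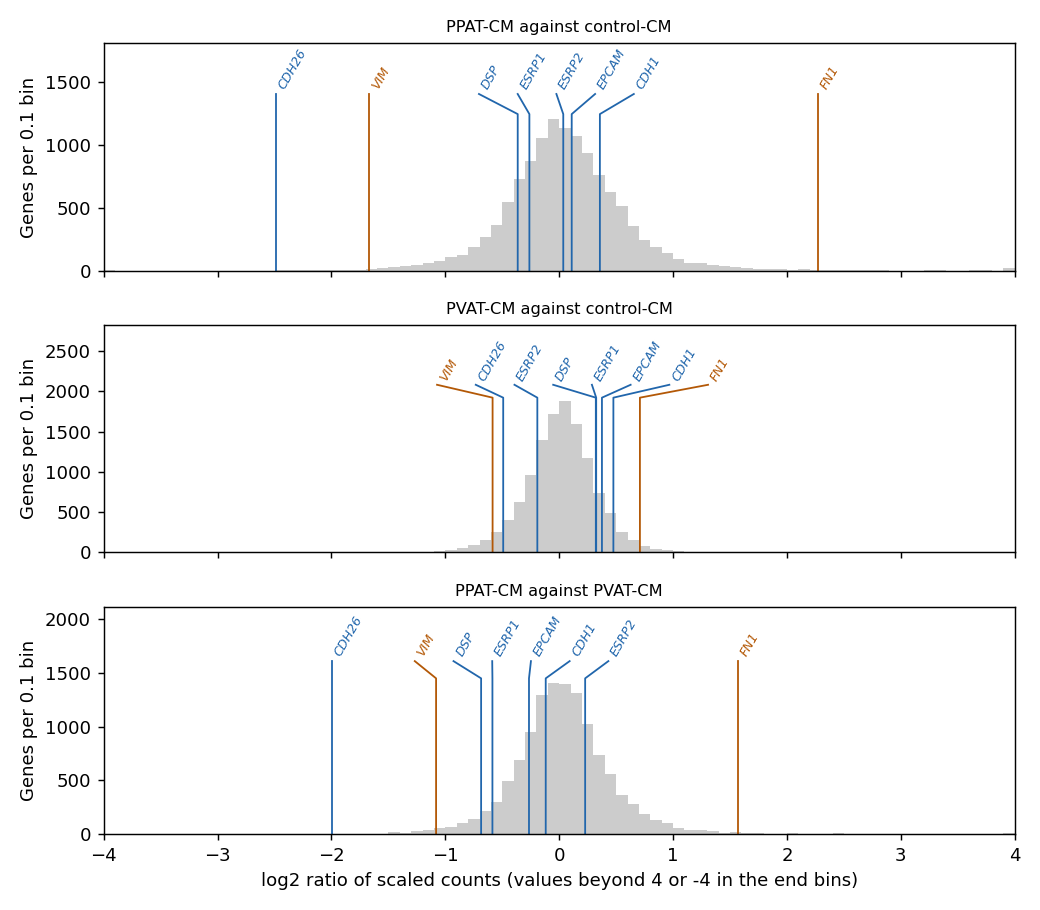
Number of genes in each bin of 0.1 of the log2 ratio, for 12256 genes in each comparison, with the 8 measured genes as vertical lines (epithelial blue, mesenchymal brown). In PPAT-CM against control-CM the lines of DSP, ESRP1, ESRP2, EPCAM and CDH1 fall within the bulk of all genes, and those of CDH26, VIM and FN1 fall in its tails.

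Levels were then compared between genes within a library, as scaled CPM for each kilobase of exon. EPCAM and CDH1 led in every library. EPCAM was at 49.2 and CDH1 at 49.1 in PPAT-CM, where their counting intervals overlapped. In PVAT-CM EPCAM was at 59.2 and CDH1 at 53.3, and in control-CM EPCAM was at 45.6 and CDH1 at 38.3. FN1 took the third place in PPAT-CM at 30.0, the fifth in PVAT-CM at 10.1 and the eighth in control-CM at 6.20. CDH26 went the other way, with the eighth place in PPAT-CM at 2.52, the sixth in PVAT-CM at 10.1 and the fourth in control-CM at 14.1.

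Of the remaining genes, VIM held the seventh place in PPAT-CM at 2.63, the eighth in PVAT-CM at 5.56 and the seventh in control-CM at 8.35. The intervals of VIM and CDH26 overlapped in PPAT-CM, those of FN1, CDH26 and ESRP2 overlapped as neighbours in PVAT-CM, and those of DSP and ESRP2 overlapped in control-CM. ESRP1 was above ESRP2 in every library, at 17.5 against 10.6 in PPAT-CM, 26.3 against 9.07 in PVAT-CM and 21.0 against 10.4 in control-CM. ZEB1 was at 0.088 in PPAT-CM, 0.0487 in PVAT-CM and 0.0686 in control-CM, below every measured gene. The length used joins all annotated exons, and with the longest coding transcript instead, an alternative chosen after the data were seen, FN1 held the third place in PPAT-CM at 58.3, the fourth in PVAT-CM at 19.7 and the seventh in control-CM at 12.1. With that length VIM was 7th in PPAT-CM at 6.34, 7th in PVAT-CM at 13.4 and 5th in control-CM at 20.2. EPCAM and CDH1 still led in every library, and in PPAT-CM they stood at 71.9 and 62.0.

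Ratios between members within a library do not depend on the scaling. FN1 had 171 counts for every 100 CDH1 counts in PPAT-CM, 53.3 in PVAT-CM and 45.4 in control-CM. The FN1 to CDH1 ratio was thus 3.78-fold higher in PPAT-CM than in control-CM (3.53 to 4.04), and 1.18-fold higher in PVAT-CM (1.09 to 1.27). VIM had 4.47 counts for every 100 CDH1 counts in PPAT-CM, 8.72 in PVAT-CM and 18.2 in control-CM. The VIM to CDH1 ratio was 4.07-fold lower in PPAT-CM than in control-CM (3.49 to 4.76), and 2.09-fold lower in PVAT-CM (1.83 to 2.39). Relative to E-cadherin, fibronectin and vimentin transcripts therefore differed in opposite directions.

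Set against each other, the FN1 to VIM ratio was 15.4-fold higher in PPAT-CM than in control-CM (13.1 to 18), and 2.45-fold higher in PVAT-CM (2.13 to 2.82). CDH26 had 4.77 counts for every 100 of CDH1 in PPAT-CM, 17.6 in PVAT-CM and 34.4 in control-CM, a ratio 7.20-fold lower in PPAT-CM than in control-CM (6.26 to 8.30). DSP to CDH1 was 1.65-fold lower in PPAT-CM than in control-CM (1.52 to 1.79). EPCAM had 40.9 counts for every 100 of CDH1 in PPAT-CM, 45.3 in PVAT-CM and 48.6 in control-CM. The ESRP1 to ESRP2 ratio was 1.23-fold lower in PPAT-CM than in control-CM (1.10 to 1.38), and 1.43-fold higher in PVAT-CM than in control-CM (1.27 to 1.62).

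**Figure D4:**
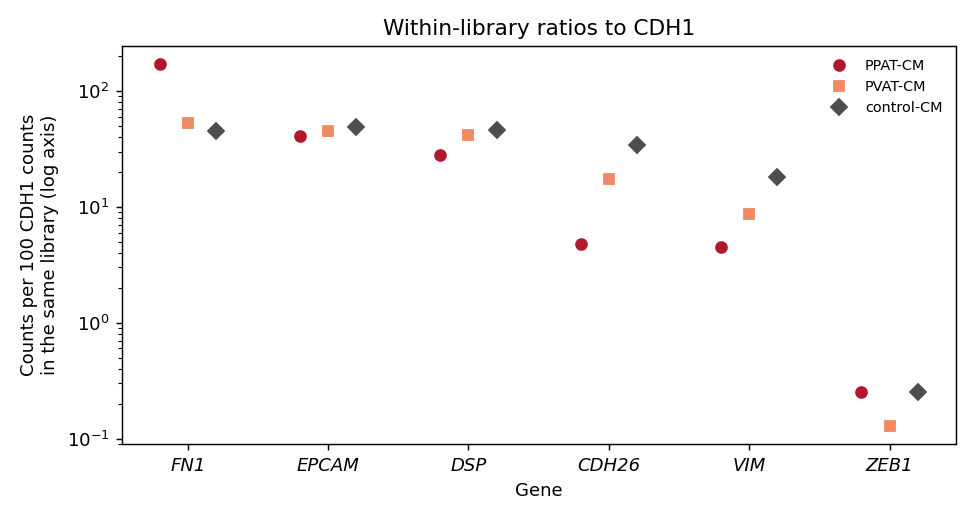
Counts of 6 genes for every 100 CDH1 counts of the same library, on a log axis, in PPAT-CM (circles), PVAT-CM (squares) and control-CM (diamonds). FN1 stands at 171 in PPAT-CM and 45.4 in control-CM, CDH26 at 4.77 in PPAT-CM and 34.4 in control-CM, and VIM at 4.47 in PPAT-CM and 18.2 in control-CM.

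The genes around these 10 were described through 13 lists of junction, transcription factor, splicing and matrix genes, with 219 genes, of which 136 were measured. In PPAT-CM against control-CM 12 of the 136 were higher by 2-fold or more and 2 were lower by as much, with a median log2 ratio of 0.08. Over all measured genes 3.93% were that much higher and 2.74% that much lower, with a median of 0.03. In PVAT-CM against control-CM 1 of the 136 was at least 2-fold higher and 1 lower, where 0.465% and 0.441% of all genes were. In PPAT-CM against PVAT-CM 4 were higher and 1 was lower, where 2.45% and 1.47% of all genes were. List medians there were -0.0006 for adherens junction and nectin partners and -0.01 for desmosome and cornified partners. They were 0.06 for tight junction genes, 0.10 for other cadherins and 0.16 for epithelial transcription factors. For EPCAM partners and proteases the median was -0.22.

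Adherens junction and nectin genes, the partners of CDH1, had 15 of 18 members measured, of which 1 was at least 2-fold higher in PPAT-CM than in control-CM and none lower. The median was -0.11, and 0.13 with total counts. Of the catenins, which join cadherins to actin or steady them at the membrane, CTNNA1 was 1.08-fold lower (1.04 to 1.12) and CTNND1 1.07-fold lower (1.02 to 1.11), both of which turned to higher with total counts. CTNNB1 was 1.30-fold higher (1.21 to 1.39). The alpha-catenin gene CTNNA3 was 1.69-fold lower in PPAT-CM than in control-CM (1.37 to 2.09), and 1.69-fold lower in PVAT-CM too (1.35 to 2.13). NECTIN4, a cell adhesion molecule of the nectin family, had 327 counts in PPAT-CM, 155 in PVAT-CM and 105 in control-CM and was 2.57-fold higher in PPAT-CM than in control-CM (2.06 to 3.23). The photoreceptor cadherin gene CDHR1 was 1.61-fold lower in PVAT-CM than in control-CM (1.21 to 2.16).

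The list of desmosome and cornified partners also holds PERP, PPL, EVPL, PLEC and DST, so its median is not one of desmosome genes alone. It had 11 of 16 members measured and none past 2-fold in any of the 3 comparisons, with a median of -0.03 in PPAT-CM against control-CM, and 0.21 with total counts. The desmosomal cadherin gene DSG2 had the same order of libraries as DSP after scaling, with 819 counts in PPAT-CM, 1027 in PVAT-CM and 960 in control-CM. DSG2 was 1.42-fold lower in PPAT-CM than in control-CM (1.29 to 1.56), and 1.62-fold lower in PPAT-CM, set against PVAT-CM (1.47 to 1.78). JUP, which encodes plakoglobin, had a ratio in PPAT-CM against control-CM whose interval included 1 (0.927 to 1.03). DSC3 was 1.57-fold lower in PPAT-CM than in control-CM (1.13 to 2.19), on 68 counts in PPAT-CM and 88 in control-CM. DSC2, picked after its values were seen, was 1.27-fold lower there (1.15 to 1.40). PKP2 was 1.56-fold higher in PPAT-CM than in PVAT-CM (1.14 to 2.17).

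Tight junction genes had 20 of 24 members measured, of which 1 was at least 2-fold higher in PPAT-CM than in control-CM and none lower, with a median of 0.09. CLDN23 was 2.70-fold higher (1.94 to 3.83), on 154 counts in PPAT-CM and 47 in control-CM, and CLDN4 1.80-fold higher (1.68 to 1.94). CLDN7, whose claudin associates with EPCAM, had an interval that included 1 in PPAT-CM against control-CM, and was 1.23-fold higher in PVAT-CM than in control-CM (1.15 to 1.31). CLDN15 was 1.79-fold higher in PPAT-CM than in PVAT-CM (1.45 to 2.22).

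Among EPCAM partners and proteases 13 of 15 were measured, with a median of 0.29 in PPAT-CM and 0.25 in PVAT-CM, each against control-CM. The genes were more divided in PPAT-CM, with 7 above 0 and 6 below, than in PVAT-CM, with 12 above and 1 below. SPINT2, an inhibitor of the membrane proteases that cleave EPCAM, had 2249 counts in PPAT-CM, 1300 in PVAT-CM and 819 in control-CM. It was 2.27-fold higher in PPAT-CM than in control-CM (2.09 to 2.46), and 1.69-fold higher in PVAT-CM (1.55 to 1.85). The tetraspanin CD9 was 1.54-fold higher in PVAT-CM than in control-CM (1.45 to 1.64), and CD82 was 1.66-fold lower in PPAT-CM, set against PVAT-CM (1.24 to 2.23).

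Of 26 other cadherins 5 were measured. FAT1, which encodes a large atypical cadherin, had 2014 counts in PPAT-CM, 788 in PVAT-CM and 571 in control-CM and was 2.91-fold higher in PPAT-CM than in control-CM (2.65 to 3.20). CDH24 was 2.26-fold lower in PVAT-CM than in control-CM (1.80 to 2.84), and 1.31-fold lower in PPAT-CM (1.10 to 1.57). CDH3, which encodes P-cadherin of basal cells, did not pass the filter, with 33 counts in PPAT-CM, 20 in PVAT-CM and 19 in control-CM.

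Epithelial transcription factor genes had 10 of 15 members measured, and 2 were at least 2-fold higher in PPAT-CM than in control-CM and none lower, with a median of 0.39. ELF3, an epithelial ETS factor, had 1851 counts in PPAT-CM, 597 in PVAT-CM and 547 in control-CM and was 2.79-fold higher in PPAT-CM than in control-CM (2.54 to 3.08). KLF5 was 3.09-fold higher (1.95 to 5.08), on 90 counts in PPAT-CM and 24 in control-CM, and 2.35-fold higher in PVAT-CM than in control-CM (1.43 to 3.98). GRHL2 and OVOL2, which repress ZEB1 in epithelial cells, were 1.27-fold (1.19 to 1.35) and 1.37-fold higher (1.11 to 1.71) in PPAT-CM than in control-CM.

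EMT transcription factor genes had 6 of 15 members measured and none past 2-fold in the 3 comparisons. Their median in PPAT-CM against control-CM was 0.38, close to that of the epithelial factors, with 5 of 6 above 0. The E-protein genes TCF3 and TCF12 were 1.43-fold (1.33 to 1.54) and 1.21-fold higher (1.09 to 1.36) in PPAT-CM than in control-CM, and TWIST1 was 1.24-fold higher (1.04 to 1.49). Among those below the filter, FOXC1 had 38 counts in PPAT-CM, 4 in PVAT-CM and 5 in control-CM. These 4 genes were picked after their values were seen. ZEB2 had 0 counts in every library, and SNAI2 had 5 in PPAT-CM, 2 in PVAT-CM and 4 in control-CM. SNAI1, below the filter and also picked after its values were seen, had 32 in PPAT-CM, 5 in PVAT-CM and 24 in control-CM. It was 4.51-fold lower in PVAT-CM than in control-CM (1.69 to 15.1), and 4.96-fold higher in PPAT-CM than in PVAT-CM (1.92 to 16.3). Its interval in PPAT-CM against control-CM included 1. The interval of TCF4 included 1 in all 3 comparisons. All 11 ZEB1 cofactors and neighbours were measured, with a median of 0.30 in PPAT-CM against control-CM, 7 above 0 and 4 below. In that comparison 2 were at least 2-fold higher and none lower. The repressor gene BCL6 and the corepressor gene CTBP2 were 2.85-fold (2.69 to 3.02) and 2.04-fold higher (1.92 to 2.17) in PPAT-CM than in control-CM, and YAP1 was 1.65-fold higher (1.55 to 1.76). CTBP1, the paralog of CTBP2, had more counts than CTBP2 in every library, at 5635 in PPAT-CM, 4698 in PVAT-CM and 6098 in control-CM. It was 1.31-fold lower in PPAT-CM than in control-CM (1.27 to 1.36), and HDAC1 was 1.31-fold lower (1.25 to 1.37). CTBP1 and HDAC1 were picked after their values were seen.

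MIR200CHG, the host transcript of miR-200c and miR-141 and picked out of this list after its values were seen, had 226 counts in PPAT-CM, 273 in PVAT-CM and 300 in control-CM. It was 1.61-fold lower in PPAT-CM than in control-CM (1.35 to 1.92), and 1.56-fold lower in PPAT-CM, set against PVAT-CM (1.30 to 1.87). These microRNAs are known to repress ZEB1 and ZEB2, and their mature sequences (RefSeq, GRCh38.p14) are shown because the host transcript was measured where both targets were near or at 0. Capitals mark the seed, bases 2 to 8, and the seeds belong to separate groups. Counts of the host do not measure the mature microRNAs.
hsa-miR-200c-3p, chr12:6963742-6963764, plus strand: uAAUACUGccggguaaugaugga
hsa-miR-141-3p, chr12:6964155-6964176, plus strand: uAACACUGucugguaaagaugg

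All 13 EMT splicing regulators were measured, with a median of -0.17 in PPAT-CM against control-CM, and 0.07 with total counts. None was at least 2-fold higher and 1 was lower. RBM24, a muscle splicing factor, was 2.55-fold lower (1.96 to 3.34), on 86 counts in PPAT-CM and 181 in control-CM. QKI, which favours mesenchymal exon choices, had 1444 counts in PPAT-CM, 2057 in PVAT-CM and 2221 in control-CM and was 1.86-fold lower in PPAT-CM than in control-CM (1.74 to 1.99). PTBP2 was 1.70-fold lower (1.55 to 1.85), while RBM47, an epithelial splicing factor, was 1.31-fold higher (1.23 to 1.39). Of 13 transcripts whose splicing the ESRP proteins regulate, 10 were measured, and none of these was past 2-fold in PPAT-CM against control-CM. FGFR1 was 1.59-fold lower in PVAT-CM than in control-CM (1.26 to 2.02). The other 3 were below the filter, with low counts that differed. FGFR2 had 11 counts in PPAT-CM, 42 in PVAT-CM and 39 in control-CM, and was 4.30-fold lower in PPAT-CM than in control-CM (2.16 to 9.31). FGFR3 had 16 counts in PPAT-CM, 13 in PVAT-CM and 29 in control-CM, and was 2.20-fold lower in PPAT-CM than in control-CM (1.15 to 4.33). CD44 had 25 counts in PPAT-CM, 1 in PVAT-CM and 0 in control-CM.

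Other mesenchymal and contractile genes were mostly below the filter, with 5 of 20 measured. Their median was -0.33 in PPAT-CM and -0.33 in PVAT-CM, each against control-CM. Below 0 were 3 of the 5 in PPAT-CM, of which 1 was at least 2-fold lower, and 4 in PVAT-CM. In PPAT-CM against PVAT-CM the median was 0.32. CALD1, which encodes the actin-binding caldesmon, had 6687 counts in PPAT-CM, 7960 in PVAT-CM and 11269 in control-CM, the same order of libraries as VIM. CALD1 was 2.04-fold lower in PPAT-CM than in control-CM (1.98 to 2.11), and 1.33-fold lower in PVAT-CM (1.29 to 1.37). SYNM, an intermediate filament gene whose protein pairs with vimentin, was 1.56-fold lower in PPAT-CM than in control-CM (1.21 to 2.02), and TPM1 was 1.77-fold higher (1.62 to 1.93). Below the filter, and picked after their values were seen, were MYL9 and ACTA2, which encode a myosin light chain and smooth muscle actin. MYL9, with a mean of 47.7 counts, had 8 in PPAT-CM, 36 in PVAT-CM and 99 in control-CM, and was 15.0-fold lower in PPAT-CM than in control-CM (7.32 to 35.7). ACTA2 went the other way, with 26 counts in PPAT-CM, 11 in PVAT-CM and 5 in control-CM, and was 4.29-fold higher in PPAT-CM than in control-CM (1.62 to 14.3).

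Fibronectin receptor and assembly genes had 8 of 20 members measured, with a median of 0.15 and 2 at least 2-fold higher in PPAT-CM than in control-CM. SDC1, a syndecan that binds matrix through heparan sulfate, had 442 counts in PPAT-CM, 166 in PVAT-CM and 118 in control-CM and was 3.09-fold higher in PPAT-CM than in control-CM (2.52 to 3.82). The integrin chain ITGAV was 2.37-fold higher (2.08 to 2.71), and SDC2 was 1.94-fold lower (1.77 to 2.13). The chains of the classical fibronectin receptor differed little, with ITGB1 1.15-fold higher (1.09 to 1.22) and an interval of ITGA5 that included 1. Of 15 TGF-beta ligands, receptors and SMADs 11 were measured, with a median of -0.22, which was 0.02 with total counts and 0.15 as a mean. The co-receptor TGFBR3 was 4.46-fold higher in PPAT-CM than in control-CM (3.67 to 5.44) and the corepressor TGIF1 2.02-fold higher (1.79 to 2.29), while LTBP1 was 1.73-fold lower in PVAT-CM than in control-CM (1.14 to 2.65).

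**Figure D5:**
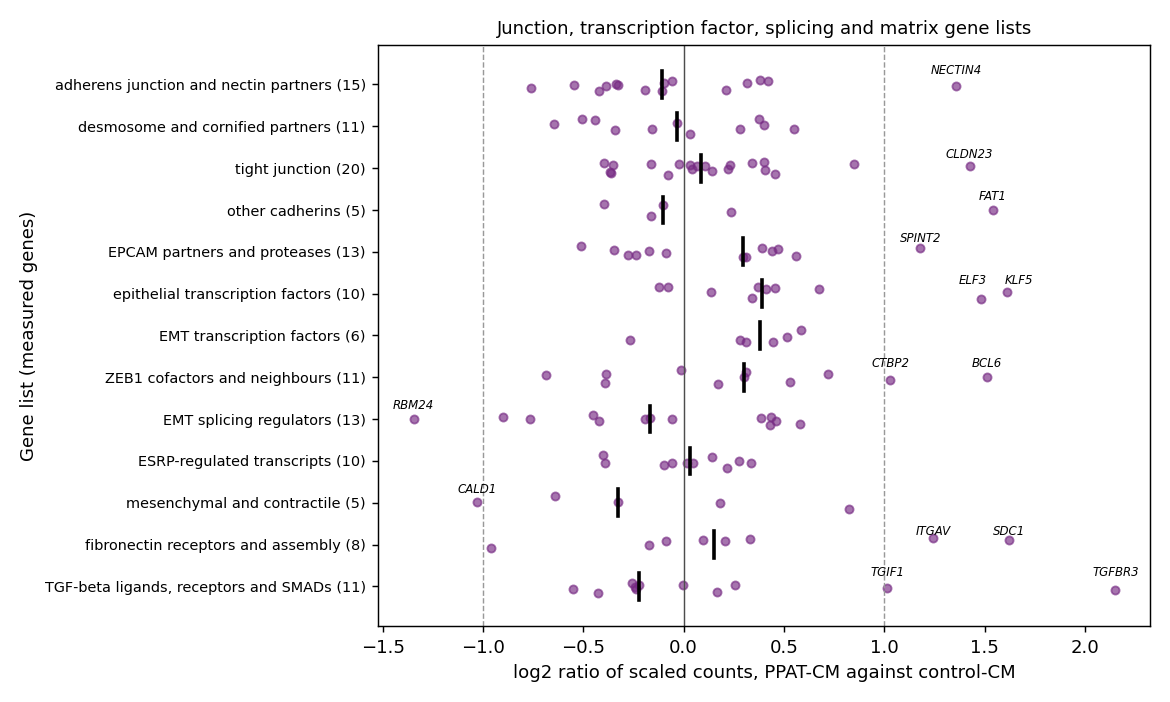
Log2 ratios of scaled counts in PPAT-CM against control-CM for the measured genes of the 13 lists, 1 point for each gene and a black bar at the list median. Dashed lines mark 2-fold, and genes beyond them are named. Of the 136 genes 12 lie right of the right dashed line and 2, RBM24 and CALD1, left of the left one.

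The genes nearest to each of the 3 genes past 2-fold were found by the distance between their pairs of log2 ratios, PPAT-CM and PVAT-CM each against control-CM, among 8833 genes with a mean of at least 200 counts. This likeness rests on 3 libraries that share the control-CM library and is a description. Nearest to FN1 were B2M, which encodes the light chain of HLA class I, PMAIP1 and ICK, at distances of 0.104, 0.108 and 0.113. Nearest to VIM were UFL1, the mitochondrial pseudogene MTND2P28 and AIDA, at 0.0781, 0.0861 and 0.106. CDH26 had no neighbour as near, with LAMA3, a laminin chain gene, RIPOR2 and CLU at 0.280, 0.288 and 0.350.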

How the data were processed

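The authors deposited whole-number raw counts per gene, not normalized, for the 3 libraries. Per the submitters' processing notes FastQC, Trimmomatic, HISAT2, featureCounts and edgeR were used with GRCh38, with versions, annotation and strand setting not given in the sources used here. Reads of overlapping or antisense genes may have been counted together. Names, GRCh38 positions and exon lengths came from GENCODE release 29, which matched 58611 rows. Counts were scaled with TMM factors (edgeR 4.0.16, R 4.3.3) of 1.08 for PPAT-CM, 1.01 for PVAT-CM and 0.917 for control-CM. Genes with a mean of at least 50 counts were kept. The 2-fold rule and medians used log2 of scaled counts with a pseudocount of 0.5, and printed folds are ratios of scaled counts with exact conditional binomial (Clopper-Pearson) 95% intervals (scipy 1.17.1, Python 3.11.15). No quasi-likelihood test was run, since 1 library for each medium leaves nothing from which to estimate the spread. The ratio step was tested on simulated data. Members and lists were chosen with earlier results of these data known. Named list genes were up to 3 for each list with the largest PPAT-CM to control-CM ratio that reached 1.5-fold in any comparison, plus genes fixed by name. Some genes that this rule names are not reported here. The likeness search left out genes without a proper symbol.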

Additional observations from a re-analysis of the deposited data

How the results depend on the processing

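The 8 measured genes were recomputed with DESeq2 1.42.0 size factors, total counts, upper quartile factors, TMM factors without mitochondrial genes, other filters and a pseudocount of 5. FN1, VIM and CDH26 kept their directions in all of these, with log2 ratios in PPAT-CM against control-CM from 2.20 to 2.51, from -1.74 to -1.43 and from -2.56 to -2.25. VIM in PPAT-CM against PVAT-CM reached -0.97 with total counts, under 2-fold. At 1.5-fold, 2 members were past the threshold in PVAT-CM against control-CM, where 6.64% of all genes were. In PPAT-CM against PVAT-CM 5 were, where 14.6% of all genes were. At 3-fold FN1, VIM and CDH26 were past the threshold in PPAT-CM against control-CM, where 1.76% of all genes were. The range of VIM there ran to -1.43, short of 3-fold. CDH26 alone was past 3-fold in PPAT-CM against PVAT-CM, where 1.01% of all genes were. Total counts moved the median of all genes in PPAT-CM against control-CM to 0.27, and that over the 13 lists to 0.32. That scaling put 905 of all genes at least 2-fold higher and 178 lower, and upper quartile factors 404 and 412, against 482 and 336 with TMM. The share past 2-fold in that comparison was 11.3% with a mean of at least 10 counts, 16.2% with no filter and 4.36% with at least 200. In PVAT-CM against control-CM those shares were 4.85%, 14.2% and 0.267%, and in PPAT-CM against PVAT-CM 8.54%, 15.9% and 2.33%. ZEB1 passed no filter of 10 counts or more. Ratios within a library involve no scaling or filter. No paired analysis was possible because each medium had 1 library and no test was run. Depth limits ZEB1, CDH2, ZEB2 and SNAI2, for which no difference was detectable.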
